A study of Homo sapiens with 8 samples.

Results

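Nuclear receptors are transcription factors that carry their own ligand-binding domain. This account covers 43 of them by gene symbol, from the thyroid hormone receptors to the receptors that lack a DNA-binding domain, and leaves out the NR4A subfamily. Of the 43 symbols, 42 were matched by gene identifier to the 57820 genes of the count table. NR2E3 was not matched and is given no value. RNA was sequenced from J82 cells, an established human bladder cancer line grown in DMEM with 10% FBS. The cells were stained with Hoechst, a DNA dye that some cells pump out, and were sorted by flow cytometry into side population (SP) cells, which keep little dye, and non-side population (NSP) cells. There were 4 SP and 4 NSP libraries, numbered 1 to 4 in each group. No drug or genetic change separates the groups, and both come from this 1 line, so the comparison asks which receptor transcripts differ between dye-excluding cells and the other cells of the line.

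Most nuclear receptors share a modular build. A pair of zinc fingers recognises a short DNA word, and a pocket further along the protein binds a steroid, a thyroid hormone, a retinoid, a sterol or a fatty acid. In orphan receptors no hormone is established as the ligand. Steroid receptors such as the glucocorticoid receptor wait in the cytoplasm on HSP90 chaperones and bind DNA as pairs of themselves. Thyroid hormone, retinoic acid, vitamin D, PPAR and LXR receptors sit on DNA beside a retinoid X receptor (RXR) and exchange corepressors for coactivators when ligand arrives. The amount of RNA says nothing of ligand or activity.

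The DNA word a receptor reads is set largely by the P box at the base of its first zinc finger. The 18 bases that encode the 6 P box residues are shown for the 8 receptors whose levels or positions the results turn on most and whose P box lies in 1 exon. They were read from the GRCh37 genome, 5′ to 3′ on the coding strand, and capitals mark each base that differs from NR2F1.
NR2F1: tgcgagggctgcaaaagt
NR2F2: tgcgagggctgcaaGagC
NR2F6: tgcgagggctgcaaGagC
NR2C2: tgTgaAggTtgcaaaGgt
RXRA: tgcgagggGtgcaaGGgC
NR1I3: tgTgagggctgcaaGGgt
ESRRA: tgTgaggCctgcaaaGCC
NR3C1: tgTgGAAgctgTaaaGTt

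The 3 COUP transcription factors differ least in bases: NR2F2 and NR2F6 carry the same letters and differ from NR2F1 at 2 bases. The capitals mark bases, and many of them leave the encoded residue unchanged. Read as codons, NR2F1, NR2F2 and NR2F6 encode the same residues. NR2C2, RXRA and NR1I3 share another set of residues despite their different letters. ESRRA differs from NR2F1 at 5 bases and NR3C1, the glucocorticoid receptor, at 7. The NR2F1 stretch lies in exon 1 on the plus strand at chr5:92921036-92921053, that of NR2F2 in exon 1 on the plus strand at chr15:96875620-96875637 and that of NR2F6 in exon 1 on the minus strand at chr19:17355796-17355813. Those of NR2C2 (exon 5, chr3:15062283-15062300), RXRA (exon 4, chr9:137300809-137300826) and ESRRA (exon 2, chr11:64074937-64074954) are on the plus strand. Those of NR1I3 (exon 2, chr1:161206257-161206274) and NR3C1 (exon 3, chr5:142693589-142693606) are on the minus strand. All 17 receptors with enough counts for a test had 1 match to the pattern, 11 in 1 exon and 6 across an intron. Whole transcripts of the receptors were also compared with those of all other genes, receptors or not. Only sequence in the same direction as the receptor transcript was compared. For 9 of the 17, NR2F1 and NR2F2 among them, no stretch of the read length (50 bases) is shared in that direction with annotated transcripts of another gene. Bases shared with a gene on the other strand do not enter this comparison and are described below. The largest shared portions were 6.64% of the stretches of NR2F6, 5.39% of ESRRA (mostly with its pseudogene ESRRAP1) and 3.24% of NR1I3.

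SP libraries held 1431823 to 1697218 counts and NSP libraries 1489033 to 2073526, and 9309 genes had enough counts for a test. The study's methods state far more raw reads per sample than this, and the cause of the gap was not tested. Mitochondrially encoded genes took 3.46 to 7.57% of counts in SP and 1.65 to 4.01% in NSP libraries. Leaving these genes out gave 144 genes called higher and 193 lower in SP cells, in place of 152 and 189, and a log2 fold change of 0.81 for NR2F1, as with them. The labelled bladder origin had limited marker support. UPK3A and KRT20 had 0 counts, UPK1A 1, UPK1B 13, FOXA1 22, GATA3 34 and UPK2 253 in all 8 libraries, while the keratin KRT8 had a mean of 4022 CPM in NSP and 3298 CPM in SP cells and KRT18, which overlaps it on the other strand, 435 and 404 CPM. Basal and junction genes had few counts at this depth, with 1 count each for KRT5 and KRT14, 3 for EPCAM and 24 for CDH1. The 6 mesenchymal markers, all tested, went both ways, with 2 log2 fold changes above 0 and 4 below. FN1 was called lower in SP cells (-1.25), as were 2.03% of all tested genes. With the replicate number as a block, VIM was also called lower (-0.75) and TWIST1 higher (0.98). The block fit called 5.89% of all tested genes higher and 7% lower. Among leukocyte markers PTPRC and CD3E were at 0, and the summed list ranged from 42.8 to 98.0 CPM in SP and 20.4 to 58.8 CPM in NSP libraries, held by CD14 and CD68. Endothelial and red cell markers summed to at most 0.736 CPM, with HBB at 0.

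Counts in J82 cells fell on a broad but uneven set of receptors. Of the 42 matched receptors, 37 had at least 1 count, 25 had a count in every library and 17 were tested. Their 15483 counts made up 0.117% of all counts, and the 5 receptors with the most counts held 59.4% of them. The COUP-TF, testicular, tailless and HNF4 group held the largest share at 33.3%. The thyroid hormone, retinoid and RXR group followed with 18.6%, and the estrogen-related receptors, nearly all ESRRA, held 17.6%. The 5 steroid hormone receptors together held 0.794%.

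**Figure D1:**
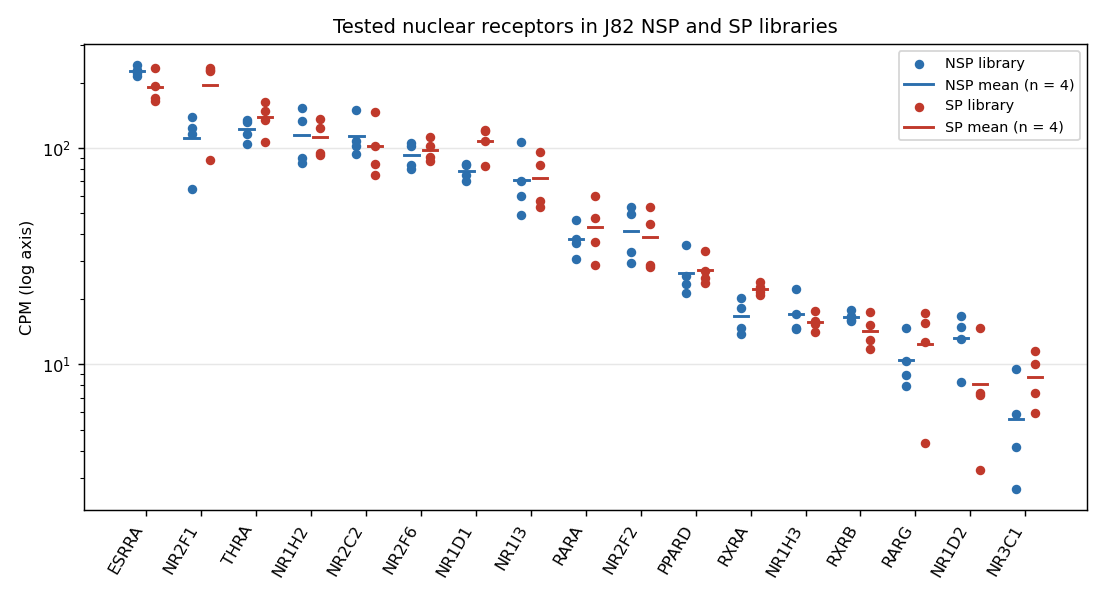
Level of each tested nuclear receptor in the 4 NSP and 4 SP libraries, as CPM on a log axis, not divided by exon length. Receptors are ordered by the mean CPM over all libraries, with points for libraries. ESRRA stands first with means of 227 CPM in NSP and 190 CPM in SP cells, and NR3C1 last with 5.58 and 8.72 CPM.

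Levels between receptors are compared as CPM (counts scaled to the normalized library size) per kb of exon. They rest on the counts credited to each gene, and the strand of the reads behind them was not tested. ESRRA, an orphan receptor known for driving mitochondrial and oxidative genes, was highest at 73.1 ± 3.72 in NSP and 61.3 ± 10.1 in SP cells (SD, n = 4 each). NR2F6, an orphan receptor of the COUP family, followed at 34.9 ± 4.93 and 36.9 ± 4.24. The clock repressor NR1D1 stood at 29.8 ± 2.51 and 41.0 ± 6.72, and NR2F1 at 25.3 ± 7.33 and 44.4 ± 16.2. The order holds only coarsely, since the libraries overlapped for 13 of 16 neighbouring pairs. The gaps without overlap lay between ESRRA and NR2F6, between THRA and NR2C2, and between PPARD and RXRB. NR1I3, NR1H2 and THRA formed a middle tier at 16.6 to 22.3 on the same scale, and RARG, NR1D2, RXRA and NR3C1 were the lowest of those tested.

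Several receptors known from bladder and hormone biology were at the edge of detection. PPARG, a driver of luminal urothelial differentiation, had 57 counts in all. Its counts were 12, 8, 13 and 5 in the NSP libraries and 7, 3, 4 and 5 in the SP libraries. VDR, the vitamin D receptor, had 53, as 12, 14, 2 and 9 in NSP and 3, 3, 7 and 3 in SP libraries. For both genes the groups overlapped, and neither was tested. The other untested receptors with a count were THRB (59), PPARA (52), NR6A1 and RORA (43 each), NR2C1 (42), RORB (41), ESR2 (21), RARB (12), NR3C2 (8), NR5A1 (6), NR0B2 and ESR1 (4 each), RXRG and HNF4A (3 each), and NR2E1, HNF4G, NR5A2 and ESRRG (2 each). The estrogen receptor ESR1 and the mineralocorticoid receptor NR3C2 thus had fewer than 10 counts in the whole series. NR1H4, PGR, NR1I2, ESRRB and NR0B1 had 0 counts in 8 libraries, which allows a level of up to 0.231 CPM over the series, with counting error alone considered.

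Nuclear receptor genes often lie across another gene, and this bears on what their counts hold. Whether reads were counted by strand is not given in the sources used here. Of the 17 tested receptors, 10 share exon bases with a gene on the other strand, in 9 pairs because THRA and NR1D1 overlap each other by 473 bp. Reads from the shared bases cannot be assigned to either gene here. Over the series, 595 lncRNAs with 50% or more of their exon bases across a protein-coding gene, and 100 or more counts in the pair, were compared with that gene, and 88.2% of them had more counts per kb than it. RARA-AS1 and NR2F1-AS1 have 31.1% and 0.695% of their exon length across the receptor, so their pairs are not in that set. Which strand the counted reads came from was not tested. A count credited to a receptor, or to any other gene named here, may therefore hold RNA of the other strand. The levels and ranks built on these counts share that limit.

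**Figure D2:**
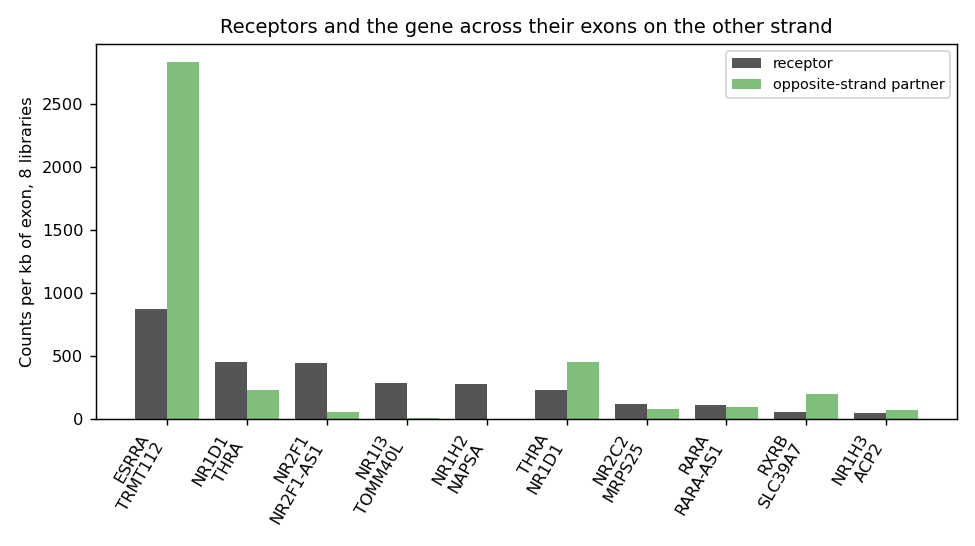
Counts per kb of exon over all 8 libraries for each tested receptor that shares exon bases with a gene on the other strand, and for that gene. The receptor is denser for 6 of the 10 receptors, with NR1I3 at 287 against 9.12 for TOMM40L, and the other gene is denser for 4, with ESRRA at 876 against 2836 for TRMT112.

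Over all libraries the receptor had more counts per kb than its opposite-strand gene for 6 of the 10. NR1I3, the constitutive androstane receptor best known as a xenobiotic sensor of liver, had 931 counts, while TOMM40L, which shares 663 bp with it, had 30. NR1H2, the oxysterol receptor LXR beta, had 1464 counts, and NAPSA, a protease gene sharing 1182 bp, had 0. ESRRA shares 284 bp with TRMT112, a methyltransferase cofactor that had 3120 counts against 2716. The widest overlap was that of the orphan receptor NR2C2 with the mitochondrial ribosomal gene MRPS25, at 7157 bp or 60.5% of NR2C2 exon length. The NR1H3 overlap with ACP2 (189 bp), the RXRB overlap with SLC39A7 (361 bp) and the RARA overlap with RARA-AS1 (556 bp) were each under 12% of the receptor's exon length, and the part of these reads in the levels was not tested.

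Between SP and NSP cells, 0 of the 17 tested receptors were called by edgeR's quasi-likelihood test at a Benjamini-Hochberg adjusted p under 0.05 and a fold change over 1.3. Over all tested genes 3.66% were called, 1.63% higher and 2.03% lower in SP cells. DESeq2 and limma voom also called 0 receptors, and 2 receptors, NR2F1 and NR1D1, had an unadjusted p under 0.05, against 16.4% of all genes. Log2 fold changes of the 17 ran from -0.74 to 0.81 (SP minus NSP, here and throughout), 10 positive and 7 negative. Their median was 0.03 beside 0.01 over all tested genes, and 12 lay within 0.3 of 0. The median total count behind a tested receptor was 529, against 332 over all tested genes.

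**Figure D3:**
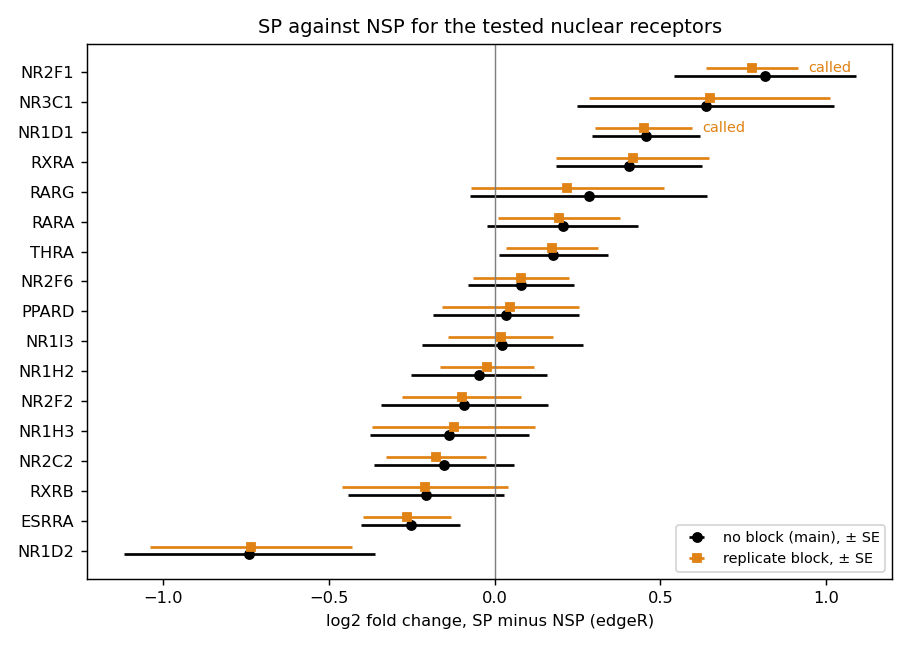
Log2 fold change (SP minus NSP) of the 17 tested receptors with its standard error, from edgeR without and with the replicate number as a block. NR2F1 is highest at 0.81 and NR1D2 lowest at -0.74, and with the block NR2F1 and NR1D1 are called.

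Same-numbered libraries deviated together, and an alternative fit took the replicate number as a block. It called NR2F1 and NR1D1 higher in SP cells, 2 of 17. With the block 12.9% of all tested genes were called, 5.89% higher and 7% lower. The SP library was above the NSP library of its number in all 4 pairs for NR1D1, NR2F1, THRA and RXRA, and below it in all 4 for NR1D2. Over all genes these patterns were held by 14.9% and 15.1%. The labels do not say whether replicates came from separate cultures or sorts, so the p-values measure the spread between these libraries, which may be technical.

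NR2F1 (COUP-TFI, ENSG00000175745, GRCh37 chr5:92918928-92930317, plus strand) is an orphan receptor of neural development, also studied in tumour cell dormancy. Its level was 64.9, 124, 139 and 115 CPM in NSP libraries 1 to 4 and 87.9, 227, 228 and 235 CPM in SP libraries 1 to 4. SP replicates 2, 3 and 4 lay above every NSP library, and SP replicate 1 lay within the NSP range. The means were 111 ± 32.1 CPM in NSP and 194 ± 71.1 CPM in SP cells (SD, n = 4 each). The log2 fold change was 0.81 (SE 0.27) with an edgeR adjusted p of 0.124. The exact two-sided permutation test, which took no account of replicate number, gave p = 0.114, where the smallest possible is 0.0286. Both replicate 1 libraries were the lowest of their group, and within pairs the log2 difference was 0.43, 0.87, 0.71 and 1.02. With the replicate block the log2 fold change was 0.78 (SE 0.14) at an adjusted p of 6.10e-06. Leaving out each library in turn gave 0.62 (without NSP replicate 1) to 1.05 (without SP replicate 1), called only in the latter (adjusted p 0.0132). With no filter on low counts it was 0.79 and called (adjusted p 0.00118), while DESeq2, voom and the other normalizations did not call it.

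The lncRNA NR2F1-AS1, which starts beside NR2F1 on the other strand, followed the same libraries. Its level was 35.1, 84.5, 72.1 and 79.5 CPM in NSP and 39.6, 155, 126 and 138 CPM in SP libraries. The exons overlap by 158 bp, which is 3.61% of NR2F1 exon length, and the part of shared reads was not tested. The log2 fold change of NR2F1-AS1 was 0.76 (SE 0.33, adjusted p 0.25), and 0.71 with the block (adjusted p 1.92e-04), higher in SP cells in 4 of 4 pairs. NR2F1 counts were 1.47 to 2.22 times those of NR2F1-AS1 in SP and 1.45 to 1.93 times in NSP libraries, so the ranges of the ratio overlapped.

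**Figure D4:**
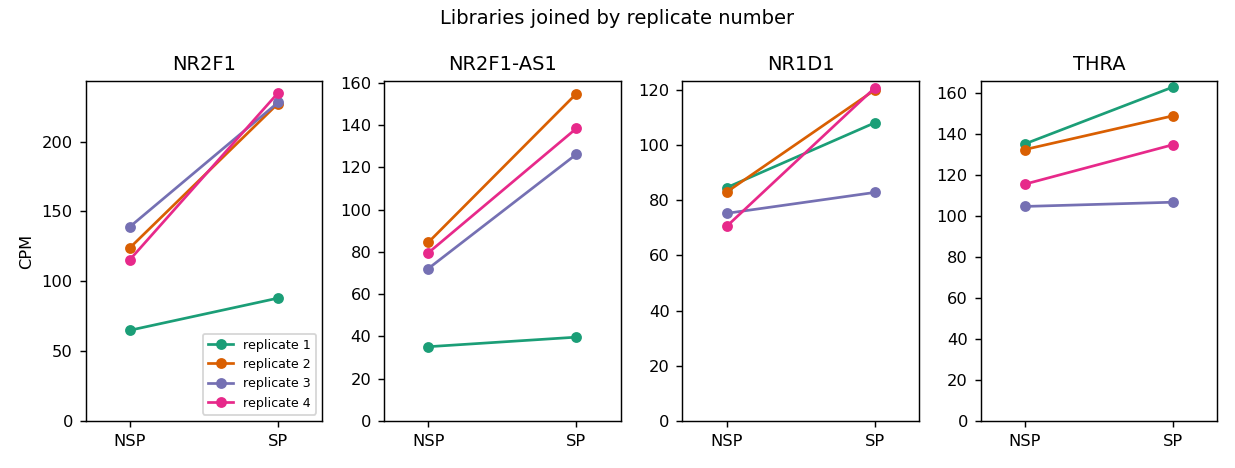
CPM of NR2F1, the lncRNA NR2F1-AS1, NR1D1 and THRA in each NSP and SP library, with lines joining libraries of the same replicate number. For NR2F1 every line rises, from 64.9 to 87.9 CPM in replicate 1 and from 115 to 235 CPM in replicate 4.

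The other receptors of the COUP and testicular groups differed little. NR2F2 (COUP-TFII), which carries much of vascular and mesenchymal development, had 41.4 ± 11.9 CPM in NSP and 38.7 ± 12.5 CPM in SP cells (log2 fold change -0.09, SE 0.25). NR2F6 had 92.7 ± 13.1 and 97.9 ± 11.3 CPM (0.08, SE 0.16). NR2C2 had 113 ± 24.9 and 102 ± 31.4 CPM (-0.15, SE 0.21). Each of these differences was smaller than its standard error, and whether NR2F1 differs from its relatives in response was not tested. MRPS25, across NR2C2, had a log2 fold change of -0.49 (adjusted p 0.32) and was called lower with the block at -0.46 (adjusted p 0.0246).

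NR1D1 (REV-ERB alpha, GRCh37 chr17:38249046-38256842, minus strand) represses the clock gene BMAL1 and binds heme. Its level was 84.6, 83.0, 75.3 and 70.5 CPM in NSP and 108, 120, 82.8 and 121 CPM in SP libraries. Only SP replicate 3 fell within the NSP range. The means were 78.3 ± 6.61 and 108 ± 17.7 CPM, with a log2 fold change of 0.46 (SE 0.16), an adjusted p of 0.155 and an exact permutation p of 0.0857. With the block the log2 fold change was 0.45 (adjusted p 0.026). THRA (thyroid hormone receptor alpha, chr17:38214543-38250120, plus strand), whose 3′ exon crosses NR1D1, had 135, 132, 105 and 115 CPM in NSP and 163, 149, 107 and 135 CPM in SP libraries. Its groups overlapped, and its log2 fold change was 0.18 (SE 0.16, adjusted p 0.653). THRA counts were 1.39 to 1.64 times those of NR1D1 in NSP and 1.12 to 1.51 times in SP libraries.

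NR1D2 (REV-ERB beta, chr3:23986777-24022108, plus strand), the partner of NR1D1 in the clock, had the opposite sign. Its level was 14.9, 16.8, 8.29 and 13.1 CPM in NSP and 7.21, 14.7, 3.25 and 7.36 CPM in SP libraries. Only SP replicate 2 lay within the NSP range, and the other SP libraries lay below it. The log2 fold change was -0.74 (SE 0.38) with an adjusted p of 0.351, and -0.73 with the block (adjusted p 0.1). It was -1.21 without SP replicate 2 and -0.44 without SP replicate 3, not called in either. The remaining clock receptors, RORA and RORB, had too few counts for a test.

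RXRA, the shared partner of many receptors (chr9:137208944-137332431, plus strand), was the 1 tested receptor whose groups did not overlap. Over all tested genes 9.75% had groups that did not overlap, 4.78% with SP above. Its level was 20.2, 18.3, 14.7 and 13.8 CPM in NSP and 20.9, 24.1, 21.7 and 22.8 CPM in SP libraries. The closest values, 20.2 and 20.9, differed by less than the SD of either group. The log2 fold change was 0.40 (SE 0.22) with an adjusted p of 0.391, the exact permutation test gave its smallest p, 0.0286, and with the block the adjusted p was 0.259. RXRB had 16.6 ± 0.915 and 14.3 ± 2.49 CPM (-0.21, SE 0.23), and RXRG had 3 counts in all.

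The retinoic acid receptors overlapped between the groups. RARA had 37.8 ± 6.49 CPM in NSP and 43.3 ± 13.5 CPM in SP cells (log2 fold change 0.20, SE 0.23), and RARG, the retinoic acid receptor of skin and squamous epithelium, had 10.5 ± 2.96 and 12.5 ± 5.74 CPM (0.28, SE 0.36). RARB, itself a retinoic acid target, had 12 counts in all. The lipid sensors were close to level: PPARD, a fatty acid sensor, had 26.5 ± 6.25 and 27.3 ± 4.33 CPM (0.03, SE 0.22). NR1H2 had 115 ± 33.1 and 112 ± 20.9 CPM (-0.05, SE 0.20), and NR1H3, LXR alpha, had 17.1 ± 3.6 and 15.8 ± 1.48 CPM (-0.14, SE 0.24). NR1I3 had 71.4 ± 24.9 and 72.3 ± 20.5 CPM (0.02, SE 0.24). The 95% interval of that log2 fold change, -0.45 to 0.50, shows how wide a range of differences these libraries leave.

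NR3C1, the glucocorticoid receptor (chr5:142657496-142815077, minus strand), was the only steroid hormone receptor tested, on 90 counts. Its level was 2.66, 5.93, 9.57 and 4.15 CPM in NSP and 11.5, 10.1, 5.96 and 7.36 CPM in SP libraries. The SP libraries were mostly higher, but NSP replicate 3 lay above a pair of them. The log2 fold change was 0.64 (SE 0.39, adjusted p 0.451), and it ran from 0.39 to 0.996 when each library was left out in turn. ESRRA (chr11:64072969-64084215, plus strand) had 222, 214, 241 and 230 CPM in NSP and 164, 170, 193 and 233 CPM in SP libraries. SP replicates 1, 2 and 3 lay below every NSP library and SP replicate 4 within them. Its log2 fold change was -0.25 (SE 0.15, adjusted p 0.431), while that of TRMT112 across it was 0.29 (adjusted p 0.45).

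The genes around the receptors were read from 9 lists: cofactors, chaperones, and supply or response genes of single receptors. Counts in each list stand beside the 1.63% of all tested genes called higher and 2.03% called lower. Of 18 tested coregulators, 1 rose and 0 fell. PNRC1, a small coactivator of nuclear receptors, had 76.6, 48.9, 43.4 and 55.3 CPM in NSP and 137, 104, 98.5 and 126 CPM in SP libraries. Its groups did not overlap (log2 fold change 1.05, SE 0.19, edgeR adjusted p 0.00692). Of 11 tested receptor chaperones 0 were called by edgeR with or without the block, by DESeq2 or by voom, and 1 had an unadjusted p under 0.05. BAG1 (0.46, adjusted p 0.191), which has that unadjusted p, and FKBP4 (-0.19, adjusted p 0.651) had the smallest p-values.

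Of 10 tested glucocorticoid response genes, 3 rose in SP cells and 0 fell, and the list median was 0.39. Their log2 fold changes were mixed, 6 positive and 4 negative. Among the 15 genes listed, FKBP5 (16 counts), TSC22D3 (30) and ZBTB16 (3) were among those not tested. These are named after their values were seen. NFKBIA, the NF-kappaB inhibitor, went from 75.4 ± 14.0 to 157 ± 34.6 CPM (log2 fold change 1.06, SE 0.19, adjusted p 0.00584). CEBPD, a stress-induced bZIP factor, went from 108 ± 25.7 to 228 ± 79.6 CPM (1.08, SE 0.23, adjusted p 0.0142). KLF9, induced by glucocorticoids and by thyroid hormone, went from 59.7 ± 2.02 to 110 ± 26.2 CPM (0.88, SE 0.19, adjusted p 0.0145). These genes also answer to other signals. CEBPD was not called without NSP replicate 2 (1.02, adjusted p 0.0613), nor was KLF9 without SP replicate 2 (0.82, adjusted p 0.0516) or NSP replicate 2 (0.88, adjusted p 0.0536). With the block, which called 5.89% of all genes higher and 7% lower, 5 rose and 1 fell, adding SGK1 and DUSP1 among those higher and ERRFI1 as the lower gene, which are named after their values were seen.

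**Figure D5:**
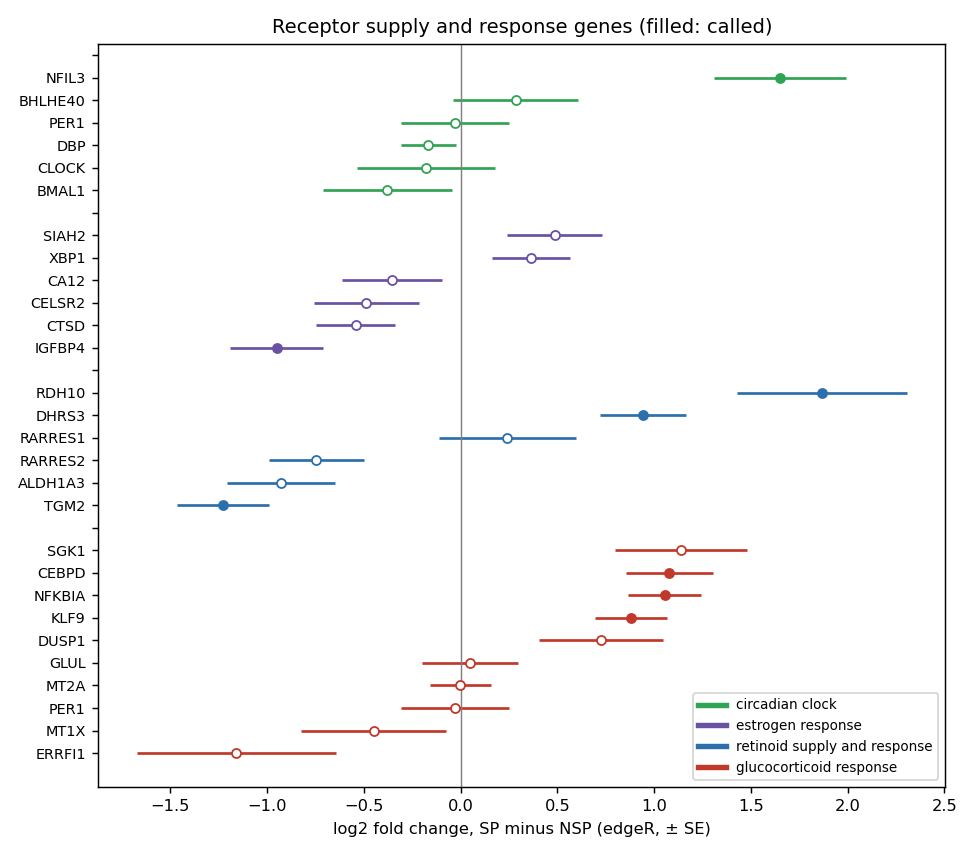
Log2 fold change (SP minus NSP) with its standard error for the tested genes of 4 response lists, with filled points for called genes. RDH10 (1.87) and NFIL3 (1.65) are the highest called genes and TGM2 (-1.23) the lowest, and PER1 appears in 2 lists.

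The 6 tested retinoid genes split, with 2 higher, 1 lower and a median of -0.25. RDH10, which oxidises retinol toward retinoic acid, had 7.45, 17.8, 49.1 and 17.3 CPM in NSP and 37.5, 104, 129 and 56.7 CPM in SP libraries. The groups overlapped through NSP replicate 3 (log2 fold change 1.87, SE 0.44, adjusted p 0.0262). It shares 278 bp of exon with RDH10-AS1, and DESeq2 did not call it (1.82, adjusted p 0.113). DHRS3, which runs the reverse step and is induced by retinoic acid, went from 29.2 ± 4.09 to 56.3 ± 16.1 CPM (0.94, SE 0.22, adjusted p 0.0262). TGM2, a transglutaminase known as a retinoic acid target, fell from 105 ± 29.4 to 44.9 ± 13.6 CPM (-1.23, SE 0.24, adjusted p 0.00922) and shares 396 bp with RPRD1B. RDH10 was not called without SP replicate 2 or 3 or NSP replicate 1, 2 or 4, at log2 fold changes of 1.55 to 1.76 (adjusted p 0.06 to 0.0979), and reached 2.54 without NSP replicate 3. DHRS3 was not called without SP replicate 1 or 4 or NSP replicate 1, 2 or 3, at 0.78 to 0.95 (adjusted p 0.0574 to 0.0919). With the block 2 retinoid genes were higher and 3 lower, against 5.89% and 7% of all genes. The added lower genes, named after their values were seen, were ALDH1A3, which makes retinoic acid from retinal (-0.91, adjusted p 0.0124), and RARRES2, the chemerin gene (-0.77, adjusted p 1.63e-04), both lower in SP cells in 4 of 4 pairs.

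Lists of the other receptors held few called genes. Of 6 tested estrogen response genes 1 fell and 0 rose: IGFBP4, which binds insulin-like growth factors, went from 176 ± 55.4 to 91.4 ± 29.4 CPM (log2 fold change -0.95, SE 0.24, adjusted p 0.0372). It was not called without SP replicate 1, 2 or 3 or NSP replicate 2 or 3, at -0.97 to -0.77 (adjusted p 0.0638 to 0.136). CTSD, which overlaps PRADX on the other strand, had -0.54 (adjusted p 0.185), was called lower with the block (-0.56, adjusted p 9.50e-04, where 7% of all genes were) and with no filter (-0.57, adjusted p 0.0424), and was lower in 3 of 4 pairs. Of 4 tested thyroid hormone genes 1 rose, the KLF9 already given, and HR, a corepressor of these receptors, had 0.80 (adjusted p 0.216). Of 6 tested clock genes 1 rose: NFIL3, a repressor that opposes DBP at its sites, went from 9.29 ± 4.58 to 30.3 ± 11 CPM (1.65, SE 0.34, adjusted p 0.0134), and was not called without SP replicate 2 (1.43, adjusted p 0.0503). DBP had -0.17 (adjusted p 0.615).

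Of 11 tested LXR and PPAR targets 0 were called by edgeR, DESeq2 or voom and 1 had an unadjusted p under 0.05, although 10 of the 11 fold changes were positive (median 0.14). MYLIP, the LXR target that degrades the LDL receptor, had 0.84 (adjusted p 0.203), and CPT1A, the carnitine transferase of fatty acid oxidation, 0.34 (adjusted p 0.46). Of 2 tested vitamin D genes 0 were called by edgeR, DESeq2 or voom, although both had an unadjusted p under 0.05 (16.4% of all genes) and both were called higher with the block (5.89% of all genes). IGFBP3 had 1.01 (SE 0.31, adjusted p 0.0926) and was called without SP replicate 4 (1.24, adjusted p 0.0252) or NSP replicate 3 (1.28, adjusted p 0.0452), and CD14, also a leukocyte marker, had 0.96 (adjusted p 0.135). CYP24A1, the enzyme that breaks down vitamin D and a classic target of VDR, had 0 counts.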

How the data were processed

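RNA-seq of sorted J82 cells was analysed from 4 SP and 4 NSP libraries. Reads were single-end, 50 bp. The authors used STAR with hg19 and then featureCounts with gencode version 19, and the deposited values are raw counts per gene. Symbols, positions, exon lengths and overlaps came from GENCODE 44 mapped to GRCh37, which held 55538 of the 57820 identifiers (96.1%). These exon lengths may differ from those of the exons that were counted. How this affects levels per kb and overlap shares was not tested.

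Counts were normalized by TMM and tested with edgeR 4.0.16 (R 4.3.3) after filterByExpr, which asks for 10 counts scaled to library size and 15 in all. A call needed a Benjamini-Hochberg adjusted p under 0.05 over 9309 genes and a fold over 1.3, the cutoffs of the study's methods. For single genes log2(CPM + 1) was also compared by exact permutation, two-sided and without pairing by replicate number, in Python 3.11.15. The script was tested on simulated data.

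Receptors and lists were chosen with earlier results of these data known. Named are all tested receptors, untested ones by total count, called list members and the 2 of smallest p in each list, and the opposite-strand gene of largest overlap. NCOA4 and PECAM1 were not matched. Some list genes, 1 of them under the rule, are not reported here.

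Replicate numbers occur in both groups. Deviations of same-numbered libraries from their group means correlated at 0.38, 0.203, 0.322 and 0.321, all over 0.1, which was taken as pairing by number. Replicates differed beyond counting noise (chi-square per degree of freedom 5.70 to 13.2). Alternatives were other normalizations, DESeq2 1.42.0, limma 3.58.1 voom, other filters, the block, no mitochondrial genes, and leaving out each library.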

Additional observations from a re-analysis of the deposited data

Results flagged for a closer look

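The NR2F1 level in SP replicate 1 stood apart from the other SP libraries. The gap from its 87.9 CPM to the next SP library was 0.948 of the range of the group, above the 95% critical value of Dixon's test for 4 samples. It was the 1 group passing that limit among 72 groups of 4 libraries looked at, and chance passes about 1 in 20. The NSP library of the same number was also the lowest of its group, at 64.9 CPM.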

How the results depend on the processing

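The number of receptors called higher was 0, 1 with no filter on low counts, 2 with the replicate block and 0 to 1 when each library was left out, and 0 were called lower when each library was left out. With no filter 303 genes were called higher and 381 lower, with the block 548 and 652, and without 1 library 69 to 164 and 89 to 181, lowest without NSP replicate 2. With no filter the calls were 5 higher glucocorticoid genes, 2 lower retinoid genes, 1 higher LXR and PPAR target, 2 higher vitamin D genes and 2 lower estrogen genes. With the replicate block they were 5 higher and 1 lower glucocorticoid genes, 3 lower retinoid genes, 2 higher vitamin D genes, 2 lower estrogen genes and 1 lower thyroid hormone gene, and no other list count moved by over 1.5 times. DESeq2 called 1 retinoid gene higher, voom 2 lower, and at least 10 counts in every library left 0 clock genes higher. Leaving out each library gave 1 to 4 higher glucocorticoid genes, 0 to 1 higher and 1 to 2 lower retinoid genes, 0 to 1 higher vitamin D, thyroid hormone and clock genes, and 0 to 1 lower estrogen genes. The cause of these changes was not tested.

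Signs turned for receptors near 0, none of them called. Leaving out each library gave log2 fold changes of -0.077 to 0.21 for PPARD, -0.17 to 0.12 for NR1H2, -0.21 to 0.018 for NR1H3, -0.14 to 0.28 for NR1I3, -0.28 to 0.057 for NR2F2 and -0.38 to 0.0036 for NR2C2. Voom gave 0.027 for NR1H2 and -0.013 for NR1I3, and DESeq2 -0.0020 for NR1I3. Depth limits the 20 receptors with a count that were not tested, none above 14 counts in a library.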
